A study of Mus musculus with 15 samples.

Results

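The vacuolar proton pump (V-ATPase) was followed through 10 of its subunit genes, taken by name from the expression table as *Tcirg1*, *Atp6v0d2*, *Atp6v0d1*, *Atp6v0a1*, *Atp6v0b*, *Atp6v1a*, *Atp6v1b2*, *Atp6v1c1*, *Atp6v1e1* and *Atp6v1g1*. They are 10 of 20089 genes with complete entries, and all 10 passed the filter on low values. RNA-seq had been performed on bone marrow-derived macrophages (BMDMs) of wild-type mice, cells grown out of bone marrow with the growth factor M-CSF, in 15 samples. All 5 groups of 3 received M-CSF. Control cells received M-CSF alone, and the others received M-CSF with RANKL, the cytokine that drives osteoclast formation, or with the bacterial product LPS, each for 4 h or for 3 d. The sample titles give no time for control cells, and no group is labelled as kept in M-CSF alone for 3 d. Time in culture and stimulus therefore cannot be told apart in the comparisons of 3 d with control. The ages of the mice for these samples, and whether replicates came from separate animals, are not given in the sources used here, and p-values then measure only the spread between these samples.

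The V-ATPase is a rotary pump that spends ATP to move protons across membranes. Its peripheral V1 sector hydrolyses ATP and turns a central stalk, and its membrane V0 sector carries the protons through a rotating ring of small subunits that passes along the fixed subunit a. In macrophages the pump acidifies endosomes, lysosomes and phagosomes. In osteoclasts it is also placed in the ruffled border, where the acid it secretes dissolves bone mineral. Several subunits have isoforms: *Tcirg1* encodes the a3 isoform, whose loss causes osteopetrosis in mice and humans, and *Atp6v0d2* encodes d2, which is enriched in osteoclasts and takes part in the fusion of their precursors. *Atp6v0a1* and *Atp6v0d1* encode the widely expressed counterparts a1 and d1.

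Markers of the labelled cells and stimuli were checked first. All 7 macrophage markers were detected in every group. In RANKL 3 d *Csf1r* was called higher and *Fcgr1* lower, beside 20.2% and 9.04% of all tested genes. In LPS 3 d *Adgre1* was called higher and *Fcgr1* lower, beside 14.9% and 16.1%. All 9 osteoclast markers rose in RANKL 3 d, where they summed to 1645 to 5307 FPKM (fragments mapped to a gene, scaled for exon length and for the depth of the library), against at most 185.7 in control, and all 6 LPS response genes rose in LPS 4 h and 5 in LPS 3 d. In RANKL 4 h the osteoclast markers summed to 96.97 to 177.1 FPKM and none of the 9 was called, so these markers did not check that group's label. In LPS 3 d they summed to 221 to 319 FPKM, with *Ctsk* called higher and *Itgb3* lower, beside 14.9% and 16.1% of all tested genes. In LPS 4 h *Acp5* was called higher and *Mmp9* and *Nfatc1* lower, beside 8.75% and 41.0%. Replicate 3 of LPS 3 d stood apart from replicates 1 and 2: its macrophage markers summed to 17150 FPKM against 5797 and 7629, its stromal markers to 479 against 89.1 and 84.6, and its LPS response genes to 154 against 325 and 386. Markers of other cells also moved with the groups. Of 10 stromal markers 7 rose in RANKL 3 d (sum 403 to 1895 FPKM, against 145 to 320 in control), and all 3 tested osteoblast markers rose there (sum of the 4 listed 1.55 to 48.1 against 0.730 to 2.32). Of 5 neutrophil granule genes 4 fell in RANKL 3 d (sum 79.9 to 294 against 1158 to 1527 in control) and all 5 fell in LPS 3 d (3.53 to 56.6). Of 5 B cell genes 4 fell in RANKL 3 d (sum 5.09 to 7.25 against 16.2 to 20.9 in control) and all 5 in LPS 3 d (0.497 to 2.22). None of the 3 T cell genes, with a sum of at most 3.63 in any sample, passed the test against control. Of 4 erythroid genes 2 were at 0 throughout RANKL 3 d, where the only tested one, *Hba-a1*, fell. In LPS 3 d the stromal marker *Dcn* was called higher and the osteoblast marker *Ibsp* lower. All these counts in RANKL 3 d stood beside 20.2% of all tested genes higher and 9.04% lower, and those in LPS 3 d beside 14.9% and 16.1%. The part of these shifts in the results below was not tested, and in bulk RNA fewer cells of a type and less RNA per cell cannot be told apart.

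In control cells the pump genes were abundant. *Atp6v1b2*, for the B2 subunit that alternates with subunit A in the V1 head, was highest at 358 ± 45.5 FPKM (SD, n = 3). *Atp6v0b*, for the ring subunit c'', followed at 289 ± 12.5, and *Tcirg1* at 265 ± 15.9. These neighbours did not overlap in range. *Atp6v1g1* (203 ± 14.7) and *Atp6v1e1* (182 ± 15.8), which encode the paired peripheral stalk subunits G1 and E1, overlapped with each other. So did *Atp6v1a* (141 ± 31.6), for the catalytic subunit A, and *Atp6v0d1* (139 ± 4.80), for the d1 subunit that joins the ring to the central stalk. *Atp6v1c1* (119 ± 11.03), for the subunit C1 of the V1 sector, *Atp6v0a1* (78.5 ± 19.5) and *Atp6v0d2* (77.6 ± 20.3) were lowest. Over all 15 samples, the mean of each of the 10 genes lay above those of 88.5% to 98.5% of the 11743 genes tested. The values rested on 860 fragments (*Atp6v0d2*, LPS 3 d) to 29747 fragments (*Atp6v1b2*) per gene and sample. Counting error was not small beside the spread between replicates in every group. *Atp6v0d1* in LPS 4 h, for example, was at 78.2 ± 1.20 FPKM on 2633 to 2688 fragments.

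**Figure D1:**
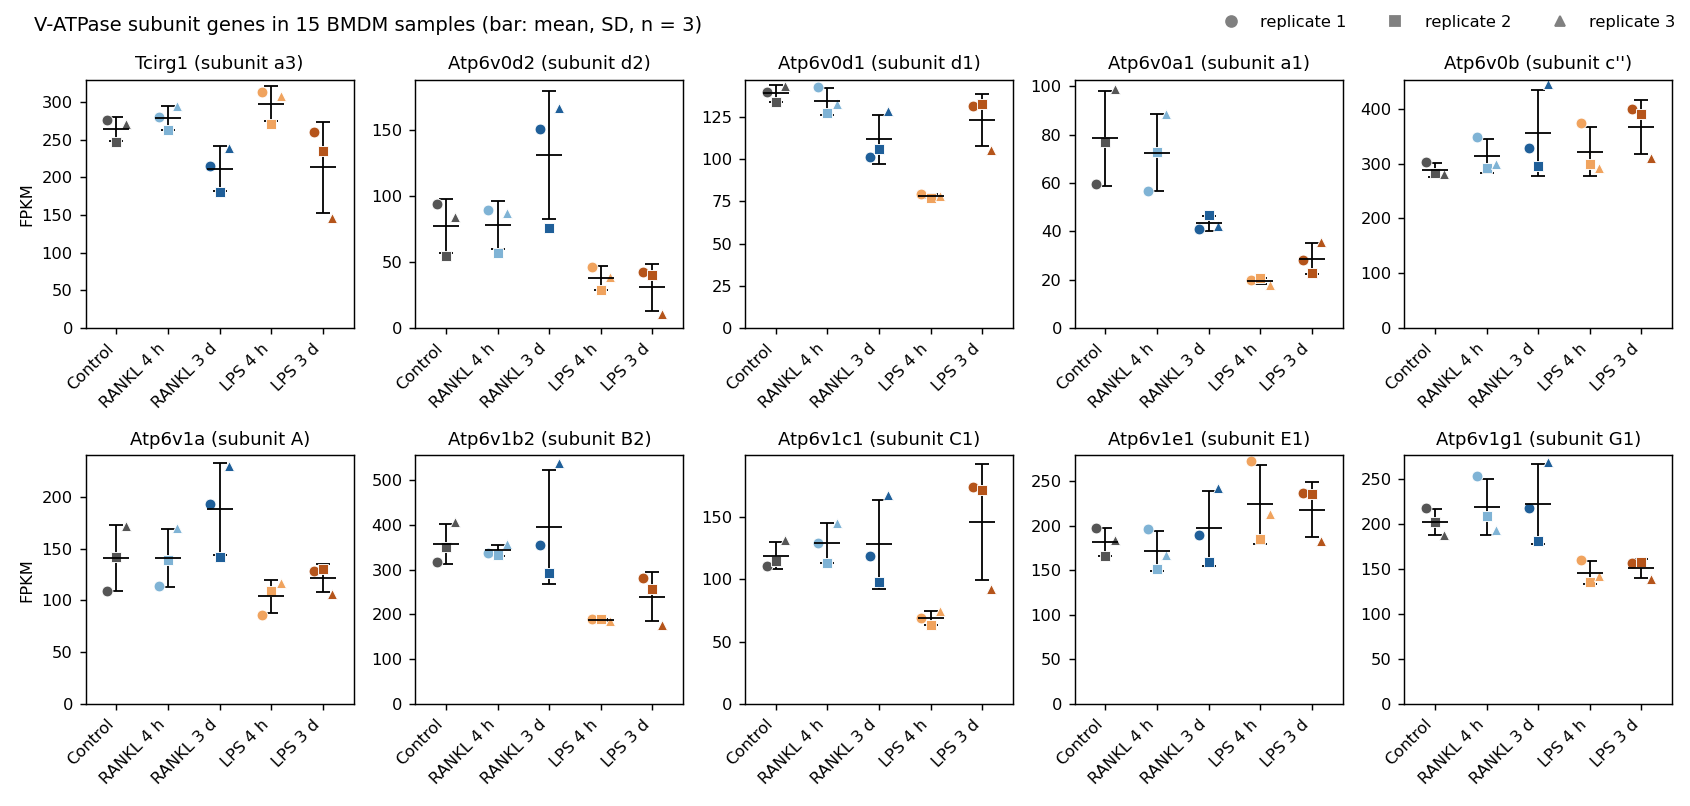
FPKM (vertical axis, from 0, a scale for each gene) of the 10 subunit genes in the 5 groups, with replicates 1 to 3 as circles, squares and triangles and the mean ± SD (n = 3) as bars. *Atp6v0d2* was highest in RANKL 3 d, where replicate 2 lay at 76.1 FPKM and the others at 151 and 167, and all 3 *Atp6v0a1* values in LPS 4 h lay at 18.05 to 20.55 FPKM, below every control value.

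The isoforms in use were few. Of each subunit with alternatives, the summed FPKM came almost wholly from 1 gene for B, C, E, G and e. *Atp6v1b1* and *Atp6v1g3*, the B1 and G3 isoforms known from kidney and other epithelia, were listed at 0 in every sample. The shares of *Atp6v1c2*, *Atp6v1e2* and *Atp6v0e2* did not exceed 0.0208%, 0.0282% and 0.107% of their subunit in any sample, and *Atp6v1g2* reached 1.79% of subunit G. For subunit a, *Tcirg1* supplied 70.4% to 91.8% of the summed FPKM, *Atp6v0a1* 5.36% to 25.7% and *Atp6v0a2* 2.40% to 9.47%. Subunit d was the other mixed one, with *Atp6v0d2* at 9.11% to 59.9%.

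The genes lie apart in the mouse genome (GRCm38, GENCODE M21). *Tcirg1* is on the minus strand of chromosome 19, from 3896050 to 3907133, and *Atp6v0d2* on the minus strand of chromosome 4, from 19876841 to 19922605. *Atp6v0b* (minus strand, 117884326 to 117887333) and *Atp6v1g1* (plus strand, 63544772 to 63550750) share that chromosome. *Atp6v0d1* (minus strand, 105524465 to 105566047) and *Atp6v1b2* (plus strand, 69088646 to 69113711) are on chromosome 8. *Atp6v0a1* is on chromosome 11 (plus strand, 101009452 to 101063719), *Atp6v1a* on chromosome 16 (minus strand, 44085402 to 44139705), *Atp6v1c1* on chromosome 15 (plus strand, 38661933 to 38692446) and *Atp6v1e1* on chromosome 6 (minus strand, 120794305 to 120822793). *Atp6v1b2* overlaps *Slc18a1*, and *Atp6v1e1* overlaps *Slc25a18*. Whether fragments were counted by strand is not given in the sources used here, so reads of these pairs could not be told apart where they overlap.

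Promoters of 6 of the 10 genes (*Tcirg1*, *Atp6v0d1*, *Atp6v0a1*, *Atp6v0b*, *Atp6v1a* and *Atp6v1e1*) were present in a RefSeq promoter table of build GRCm38.p6, which holds 250 bases before and 50 after each start. They were searched on both strands for CACGTG, the core of the element through which factors of the TFEB and MITF family act on lysosomal genes, for the longer TCACGTGA, which contains it, and for TCATGTGA. CACGTG was present in 3 of the 6 genes, against 8.09% of the 27025 genes in the table (7.15% of its 32851 promoters), and TCACGTGA in 2, against 1.12% of genes (0.974% of promoters). TCATGTGA was in none of the 6, and in 1.15% of genes (0.986% of promoters). Among 13 other pump genes with an entry, CACGTG was in 1, *Atp6v0e*. A match of letters describes the sequence and is not a binding site. The 3 genes with CACGTG are shown because they place it differently: it begins 3 bases before the start of *Atp6v0d1*, 36 and 18 bases before that of *Atp6v0b*, and 131 bases before that of *Atp6v1a*. Each window runs 5′ to 3′ on the minus strand from 140 bases before the start to 10 after it, at chr8:105566055-105566204, chr4:117887320-117887469 and chr16:44139250-44139399, with CACGTG in capitals.
Atp6v0d1: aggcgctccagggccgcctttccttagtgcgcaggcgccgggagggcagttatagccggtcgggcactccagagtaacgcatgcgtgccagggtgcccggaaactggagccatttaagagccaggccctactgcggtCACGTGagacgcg
Atp6v0b: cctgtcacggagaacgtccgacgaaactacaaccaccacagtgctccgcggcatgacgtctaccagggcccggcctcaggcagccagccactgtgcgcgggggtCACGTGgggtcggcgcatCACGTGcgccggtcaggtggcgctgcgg
Atp6v1a: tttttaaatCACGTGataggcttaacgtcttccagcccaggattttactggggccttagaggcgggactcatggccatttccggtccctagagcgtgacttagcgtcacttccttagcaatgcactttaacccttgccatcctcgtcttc

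The first comparison asked what 3 d of RANKL did to the pump genes. *Atp6v0a1* fell, and none of the 10 rose. *Atp6v0a1* was at 59.8, 76.9 and 98.7 FPKM in control replicates 1 to 3 and at 40.8, 46.8 and 42.3 in RANKL 3 d. The groups did not overlap, and the gene fell by 0.83 on the log2 scale (SE 0.20, adjusted p = 0.0071, limma). A gene was called changed at a fold above 1.5 or below 0.66 with an unadjusted p under 0.05. By this rule 0 of 10 members rose and 1 fell, where 20.2% of all tested genes rose and 9.04% fell. The median log2 change of the members was 0.10 and that of all tested genes 0.16. All comparisons with control below share the same 3 control samples.

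*Atp6v0d2* was the member with the highest fold change in RANKL 3 d, and its replicates disagreed in level. It was at 93.9, 54.8 and 84.0 FPKM in control and at 151, 76.1 and 167 in RANKL 3 d. Replicate 2 of RANKL 3 d fell inside the range of the controls, and replicate 2 was also the lowest of its group in control, RANKL 4 h and LPS 4 h. The log2 fold change was 0.72 (SE 0.46, adjusted p = 0.25, limma), a change not called. Samples with the same replicate number deviated together across genes in this comparison, weakly (correlations of 0.14 to 0.32), and replicate 3 was closer to another number (0.26) than to its own (0.18). A fit of RANKL 3 d and control alone with the replicate number as a block, an alternative added after the data had been seen, gave an SE of 0.13 and an unadjusted limma p of 0.0014. This passed the threshold, where 21.2% of all genes were called higher. With the block in the fit of all 5 groups, the unadjusted limma p was 0.11. Without replicate 2 of RANKL 3 d the log2 fold change was 1.07, and both *Atp6v0d2* and *Atp6v1a* were called higher, the latter at 0.61. That replicate had the lowest sum of osteoclast markers in its group (1645 FPKM against 3018 and 5307). Its sums of macrophage markers (16170 against 11940 and 10830) and of osteoblast markers (48.15 against 6.77 and 1.55) were the highest. The part of this in its pump genes was not tested.

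*Tcirg1* did not rise with RANKL. It was at 277, 247 and 271 FPKM in control and at 216, 180 and 239 in RANKL 3 d. All 3 RANKL values lay below the control values, with a log2 fold change of -0.33 (SE 0.18, adjusted p = 0.18, limma), which did not pass the threshold. *Atp6v0d1* (139, 134 and 143 FPKM in control; 101.1, 105.9 and 128.3 in RANKL 3 d) had an adjusted limma p of 0.049, but its log2 fold change of -0.32 was inside the fold limits. *Atp6v0b*, *Atp6v1a*, *Atp6v1b2*, *Atp6v1c1*, *Atp6v1e1* and *Atp6v1g1* had log2 fold changes of 0.07 to 0.42, and their ranges overlapped with control.

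After 4 h of RANKL no member passed the test in either direction, in limma or at an unadjusted p under 0.05 alone. Here 1.21% of all genes were called higher and 1.35% lower. The members' log2 fold changes ran from -0.11 (*Atp6v0a1*) to 0.11 (*Atp6v0b*), and all 10 overlapped with control in range. Replicate numbers paired RANKL 4 h and control. With the number as a block in the fit of these groups alone, no member was called. The lowest unadjusted limma p of a member was then 0.080 (*Atp6v0a1*), and the SE of *Atp6v0d2* was 0.053. From 4 h to 3 d of RANKL, *Atp6v0a1* was the only member called. It was at 56.6, 72.8 and 88.5 FPKM at 4 h and fell by 0.72 on the log2 scale by 3 d (SE 0.20, adjusted p = 0.016, limma). Without replicate 3 of RANKL 4 h the fall was 0.57 and was no longer called. In this comparison 20.1% of all genes were called higher and 8.24% lower, and after centring of the samples on the median gene 13.6% were called lower, among the members *Atp6v0a1* and *Tcirg1* (-0.63). *Atp6v0d2* had a log2 fold change of 0.70 (unadjusted p = 0.15, limma), with a limma p of 0.0021 under the replicate block in the fit of these groups alone, where 21.2% of all genes were called higher.

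After 4 h of LPS, *Atp6v0a1* was the member that fell furthest. It was at 19.91, 20.55 and 18.05 FPKM, a log2 change of -1.98 (SE 0.20, adjusted p = 2.7e-06, limma), and every sample lay below the control range. *Atp6v0d1* fell from 139, 134 and 143 FPKM to 79.4, 77.0 and 78.3, by 0.83 on the log2 scale (adjusted p = 4.4e-05, limma). The widely expressed isoforms a1 and d1 were thus both lower on the scale of the deposited FPKM, the call of d1 being lost after centring as given below. *Atp6v1b2* fell to 190, 189 and 185 FPKM (log2 change -0.92, adjusted p = 0.0017, limma). *Atp6v1c1* fell to 68.9, 63.0 and 74.5 FPKM (log2 change -0.79, adjusted p = 0.0093, limma).

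*Atp6v0d2* was at 46.5, 28.8 and 38.7 FPKM in LPS 4 h, below all controls. Its log2 change of -1.02 (SE 0.46) passed at the unadjusted p of 0.042 but not after adjustment (0.068, limma) in the fit of all 5 groups, and it was not called without control replicate 1 or 3 or without LPS 4 h replicate 2 or 3 (log2 changes of -0.83 to -1.04). Replicate numbers paired these groups, and the value in LPS 4 h was the lower one in all 3 pairs. A block for the number gave an adjusted limma p of 0.049 in the fit of all 5 groups and of 0.00037 in the fit of these groups alone, an alternative added after the data had been seen. *Tcirg1* was at 314, 271 and 308 FPKM, with a log2 fold change of 0.17 and ranges that overlapped. *Atp6v0b* and *Atp6v1e1* had log2 fold changes of 0.15 and 0.28 and *Atp6v1a* of -0.43, none called. *Atp6v1g1* lay at -0.47 (adjusted p = 0.013, limma), inside the fold limits.

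The 5 members lower in LPS 4 h stood beside a downward shift of the whole table. Of all tested genes 41.0% were called lower and 8.75% higher, and the median gene changed by -0.52 on the log2 scale. The members' median was -0.63. When each sample was centred on its median gene, 14.3% of all genes were called lower and 17.4% higher. *Atp6v0a1* alone of the members was then lower (log2 change -1.41), and *Tcirg1* (0.74), *Atp6v0b* (0.71) and *Atp6v1e1* (0.85) were called higher. The fall of *Atp6v0a1* therefore held on both scales, and the calls of *Atp6v0d1*, *Atp6v0d2*, *Atp6v1b2* and *Atp6v1c1* held only on the scale of the deposited FPKM.

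**Figure D2:**
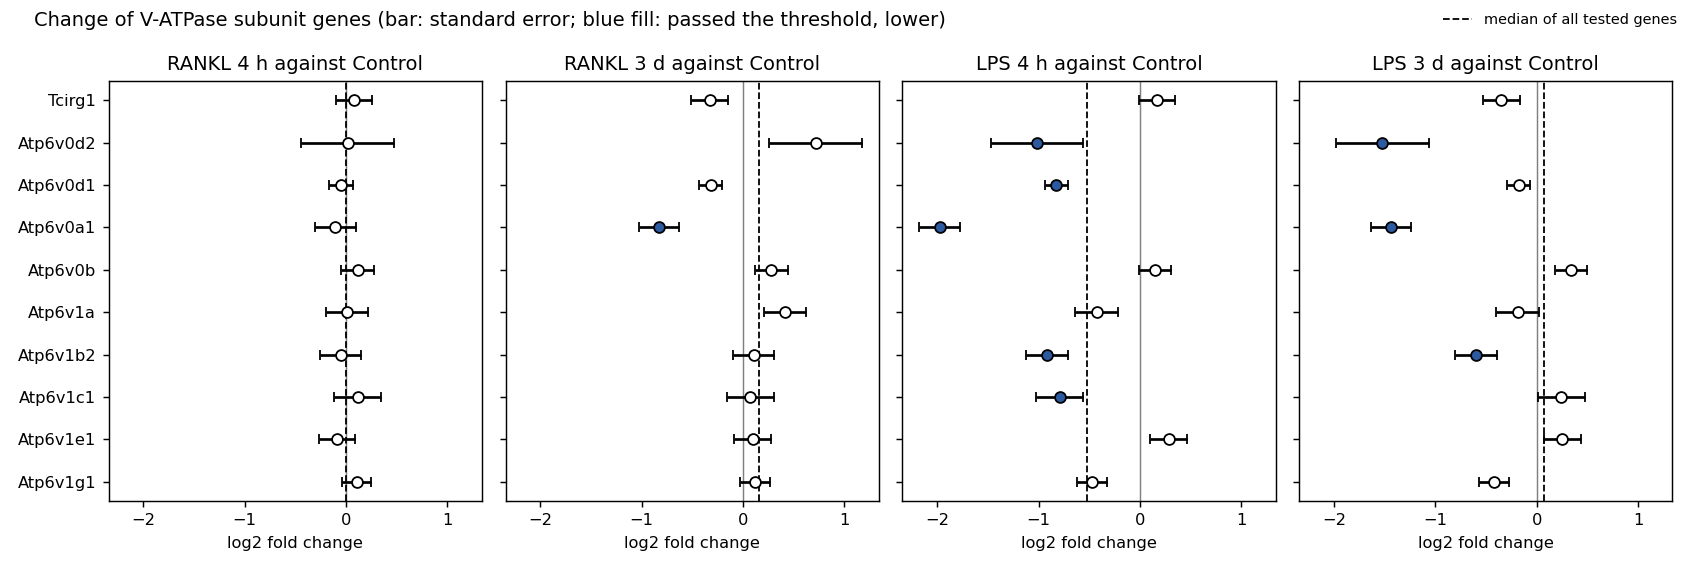
Log2 fold change against control (horizontal axis) of the 10 subunit genes in the 4 stimulated groups, with the standard error as bars. Blue points passed the threshold as lower, white points did not pass, and the dashed line is the median of all tested genes, at -0.52 in LPS 4 h.

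RANKL and LPS at 4 h were also compared directly. *Atp6v0a1* was higher with RANKL by 1.87 on the log2 scale (SE 0.20, adjusted p = 4.1e-06, limma), *Atp6v0d2* by 1.03, *Atp6v1c1* by 0.90, *Atp6v1b2* by 0.86 and *Atp6v0d1* by 0.77, so that 5 members were called higher with RANKL and 0 lower. Among all genes 42.5% were higher and 9.31% lower, which leaves the members near the background. With samples centred on their median gene, 14.7% of all genes were higher and 17.6% lower. On that scale 1 member (*Atp6v0a1*) was called higher and 3 lower (*Tcirg1*, *Atp6v0b* and *Atp6v1e1*).

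At 3 d of LPS, *Atp6v0d2* was at 42.6, 40.1 and 10.6 FPKM. All 3 values lay below the controls, and replicate 3, the library that stood apart, was far below the others. The log2 change was -1.52 (SE 0.46, adjusted p = 0.019, limma), or -0.87 without that replicate, still called. *Atp6v0a1* was at 28.1, 22.8 and 35.4 FPKM, a log2 change of -1.44 (SE 0.20, adjusted p = 0.00014, limma), or -1.60 without replicate 3. *Atp6v1b2* was at 282, 258 and 177 FPKM. Its log2 change of -0.60 was called (adjusted p = 0.035, limma), but the -0.40 left without replicate 3 was not, and neither was the -0.51 left without control replicate 3.

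The other members did not pass in LPS 3 d. *Tcirg1* was at 260, 235 and 146 FPKM, with a log2 fold change of -0.35, and of -0.10 without replicate 3. *Atp6v1c1* was at 174 and 172 FPKM in replicates 1 and 2, above all controls, and at 92.2 in replicate 3, below them. *Atp6v0b* (0.34), *Atp6v1e1* (0.25), *Atp6v0d1* (-0.18), *Atp6v1a* (-0.19) and *Atp6v1g1* (-0.42) stayed inside the fold limits. In all, 0 members rose and 3 fell, against 14.9% and 16.1% of all tested genes.

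Between RANKL and LPS at 3 d, *Atp6v0d2* differed most. Its 3 RANKL values of 76.1 to 167 FPKM lay above the 3 LPS values of 10.6 to 42.6, a log2 difference of 2.24 (SE 0.46, adjusted p = 0.0013, limma), and of 1.59 without replicate 3 of LPS 3 d. *Atp6v1b2* (0.71), *Atp6v0a1* (0.61) and *Atp6v1a* (0.61) were also called higher with RANKL, so that 4 members were higher and 0 lower, where 25.1% of all genes were higher and 13.8% lower. The smaller differences were not stable. *Atp6v1b2* and *Atp6v1a* were not called without replicate 3 of LPS 3 d (0.50 and 0.51) or without replicate 3 of RANKL 3 d (0.46 and 0.45). *Atp6v0a1* was not called without replicate 2 of LPS 3 d (0.45) or of RANKL 3 d (0.55). With samples centred on their median gene only *Atp6v0d2* was called, where 20.7% of all genes were called higher. *Tcirg1* differed by 0.02.

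The change from 4 h to 3 d was tested for a difference between the stimuli. With LPS the mean level was higher at 3 d than at 4 h for *Atp6v0d1* (123 against 78.2 FPKM), *Atp6v0a1* (28.8 against 19.5) and *Atp6v1c1* (146 against 68.8), while with RANKL *Atp6v0a1* fell over the same time. The difference, RANKL minus LPS, was -0.91 (SE 0.16, adjusted p = 0.00042, limma) for *Atp6v0d1*, -1.26 (SE 0.28, adjusted p = 0.0021) for *Atp6v0a1* and -1.07 (SE 0.33, adjusted p = 0.014) for *Atp6v1c1*. Of all genes 35.9% were lower and 17.1% higher in this term, and their median was -0.33. After centring, 21.1% were lower and 26.6% higher. On that scale 1 member (*Atp6v0a1*) was lower and 3 (*Atp6v0d2*, *Atp6v1a* and *Atp6v1e1*) were higher.

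The make-up of subunit d was read from the ratio of its isoforms within each sample, which no scaling of a whole sample can move. *Atp6v0d2* supplied 40.3%, 29.1% and 37.0% of the summed FPKM of subunit d in control, and 38.6%, 31.0% and 39.7% in RANKL 4 h. In RANKL 3 d it supplied 59.9%, 41.8% and 56.6%, above every control. In LPS 3 d it supplied 24.5%, 23.2% and 9.11%, below every control. The ratio of *Atp6v0d2* to *Atp6v0d1* was 2.05-fold higher in RANKL 3 d than in control and changed by -1.34 on the log2 scale in LPS 3 d, or by -0.80 without replicate 3. It was 5.20-fold higher in RANKL 3 d than in LPS 3 d. Each of these 3 comparisons gave p = 0.1 in a two-sided exact permutation test, the smallest p that 3 samples against 3 allow, and 0.167 after adjustment over 5 comparisons. In LPS 4 h the share was 36.9%, 27.2% and 33.1%, which overlapped with control but was lower in each of the 3 pairs of the same replicate number.

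**Figure D3:**
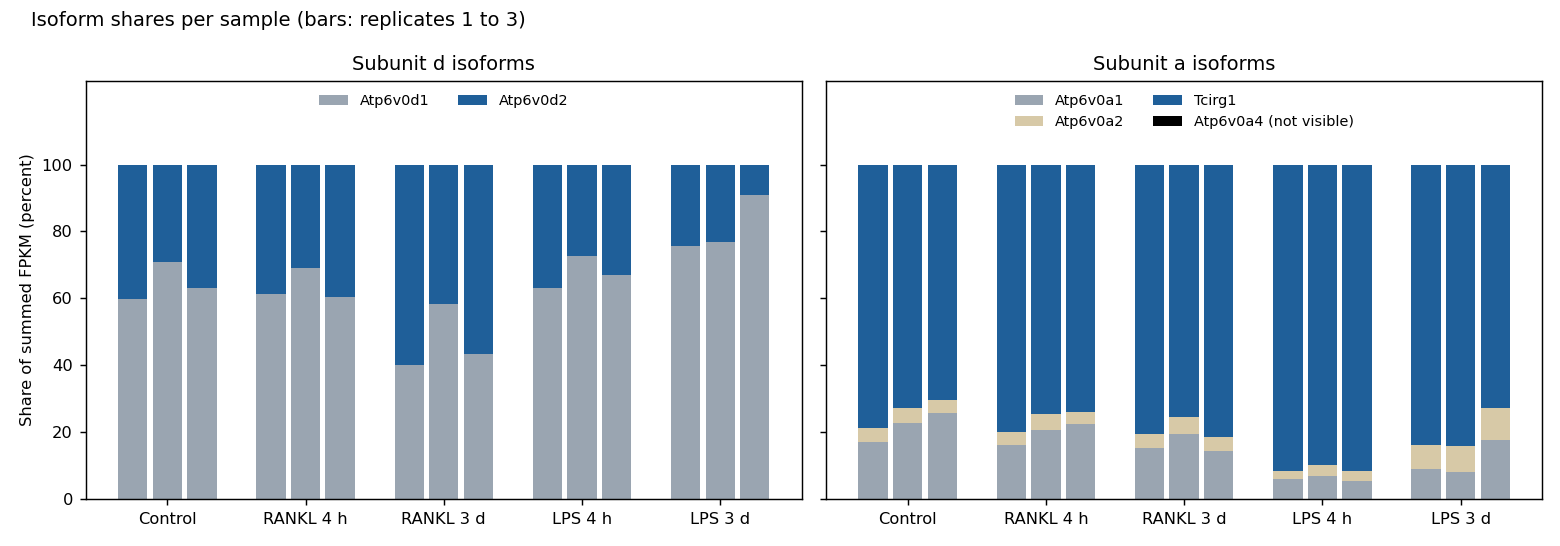
Share of the summed FPKM of subunit d (left) and subunit a (right) that each isoform gene supplied, in percent, with 1 stacked bar for each of replicates 1 to 3 in the 5 groups. The *Atp6v0d2* share is above every control in RANKL 3 d and below every control in LPS 3 d, and the *Tcirg1* share reaches 89.8% to 91.8% in LPS 4 h.

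Subunit a moved differently. *Tcirg1* supplied 78.7%, 72.8% and 70.4% of the summed FPKM of subunit a in control and 91.8%, 89.8% and 91.6% in LPS 4 h. The groups did not overlap, and the ratio of *Tcirg1* to *Atp6v0a1* was 4.42-fold higher (two-sided exact permutation p = 0.1, the smallest possible, and 0.333 after adjustment over 5 comparisons). In RANKL 3 d the share was 80.5%, 75.4% and 81.5%, and the ratio was 1.41-fold higher (exact permutation p = 0.2), with overlap. In LPS 3 d it was 83.9% and 84.1% in replicates 1 and 2 and 72.8% in replicate 3, inside the control range. On the scale of the deposited FPKM *Tcirg1* itself did not pass the test in any group against control, and after centring it was called higher in LPS 4 h.

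In both 3 d groups most pump genes were high or low in the same replicates. In RANKL 3 d, replicate 3 held the highest value of 9 of the 10 members and replicate 2 the lowest of 8. The same replicate 3 was highest for 8 of 9 osteoclast markers and replicate 2 lowest for all 9. In LPS 3 d, replicate 3 was lowest for 9 of the 10 and *Atp6v0a1* was the exception, highest there. That replicate is the library that stood apart. The other groups were more mixed. In control, replicates 1, 2 and 3 held the highest value of 5, 0 and 5 members and the lowest of 4, 4 and 2. In RANKL 4 h they held the highest of 5, 0 and 5 and the lowest of 2, 7 and 1, and in LPS 4 h the highest of 7, 1 and 2 and the lowest of 1, 6 and 3. The deviations from the group means, taken over all 15 samples, had a median correlation of 0.71 over the 45 pairs of members, of which 37 were positive, against 0.04 over all pairs of the 9486 genes whose mean reached 1 FPKM. The highest was between *Tcirg1* and *Atp6v0d2* (0.97) and the lowest between *Atp6v0a1* and *Atp6v1g1* (-0.63). The points share libraries and abundant genes have little counting error, so these values describe the 15 samples. The 15 include replicate 3 of LPS 3 d, far below replicates 1 and 2 for *Tcirg1* (146 FPKM against 260 and 235) and for *Atp6v0d2* (10.6 against 42.6 and 40.1). Correlations without that library are not given here.

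**Figure D4:**
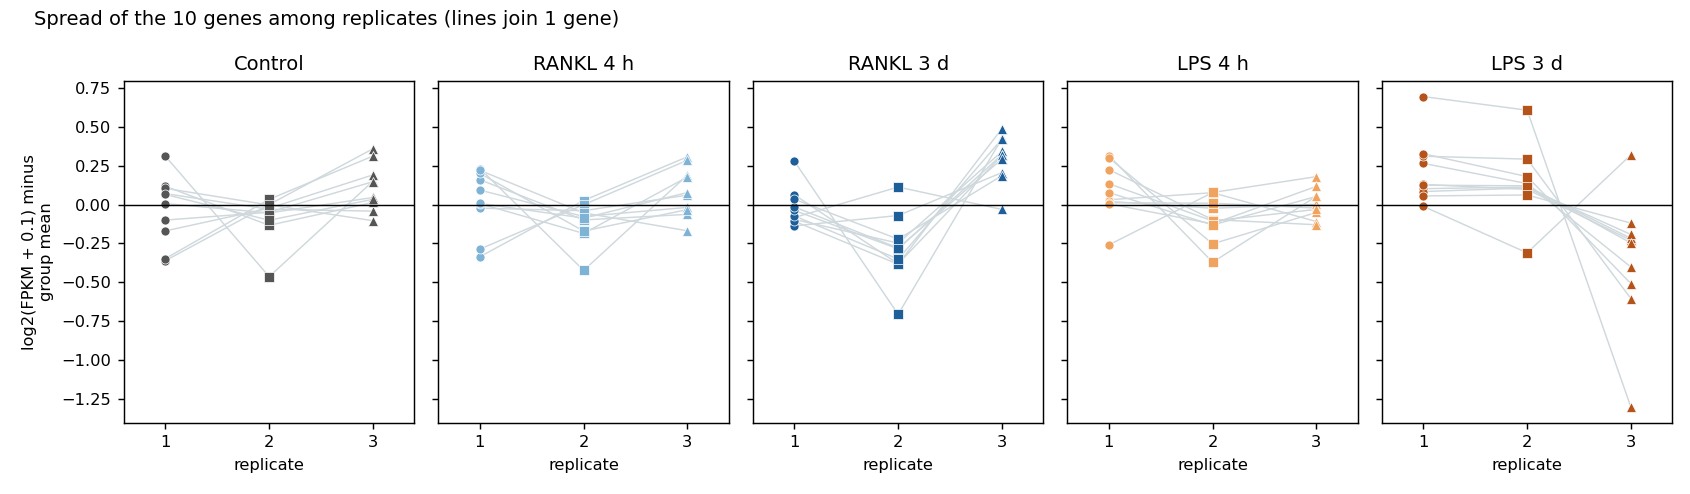
Deviation of each subunit gene from its group mean on the log2(FPKM + 0.1) scale (vertical axis) in replicates 1 to 3 (horizontal axis) of the 5 groups, with a line for each gene. In RANKL 3 d replicate 3 is highest for 9 of 10 genes, and in LPS 3 d it is lowest for 9 of 10.

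No other subunit of the pump was called in RANKL 3 d. Of 15 further V-ATPase genes in the table, 9 passed the filter on low values, and 0 of the 9 were called in RANKL 3 d, where 20.2% of all tested genes rose and 9.04% fell. *Atp6v1d*, for the rotor subunit D, came nearest, with 89.4, 77.2 and 89.9 FPKM in control and 129, 92.3 and 172 in RANKL 3 d (log2 fold change 0.57, adjusted p = 0.027, limma), just inside the fold limit. *Atp6v0c*, for the main ring subunit c, was the most abundant, at 480 to 505 FPKM in control and 524 to 751 in RANKL 3 d (0.29, not called). In LPS 4 h *Atp6v0a2* (log2 change -0.65) and *Atp6v1g2* (-1.35) fell and 0 rose, a share of 2 of 9 that was below the 41.0% of all genes called lower. After centring on the median gene *Atp6v0a2* lay at -0.08 and was not called, and *Atp6v1g2* at -0.79 was still called (14.3% of all genes). In LPS 3 d none was called. *Atp6v0a2*, for the a2 isoform of endosomes and Golgi, was at 14.86 to 15.18 FPKM in control and 22.0, 21.4 and 18.9 in LPS 3 d (0.46, inside the fold limits).

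Genes that assemble or regulate the pump showed no call in RANKL 3 d among the 7 tested, and after centring *Dmxl2* was called lower there (-0.80), where 14.2% of all genes were. In LPS 4 h 5 of the 7 fell, beside 41.0% of all genes: *Ccdc115* and *Tmem199*, assembly factors of the endoplasmic reticulum and Golgi, by 1.48 and 1.16 on the log2 scale, the rabconnectin-type gene *Dmxl1* by 1.32, *Rogdi* by 1.55 and *Tm9sf2* by 0.95. *Ncoa7*, a TLDc-domain protein that binds V1, rose by 1.12, from 6.70 to 7.16 FPKM in control to 13.9 to 17.9, where 8.75% of all genes rose. After centring, 3 were called lower, *Ccdc115* (-0.91), *Dmxl1* (-0.75) and *Rogdi* (-0.98), against 14.3% of all genes, and *Ncoa7* (1.68) was called higher, against 17.4%. *Tmem199* (-0.59) and *Tm9sf2* (-0.39) were then not called. *Tmem199* was called higher in LPS 3 d (log2 fold change 0.73, adjusted p = 0.019, limma). It was at 42.1 and 35.2 FPKM in replicates 1 and 2 and at 18.2 in replicate 3, the last inside the control range of 17.4 to 18.9, and without replicate 3 the log2 fold change was 1.09. *Rogdi* was called lower in LPS 3 d (-0.68) but did not pass after adjustment (adjusted p = 0.086, limma). These calls stood beside 14.9% of all genes higher and 16.1% lower.

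Partners of the pump in acid secretion included genes that rose with RANKL. *Car2*, the carbonic anhydrase that supplies protons, was at 1.22 to 3.39 FPKM in control and 35.4 in replicate 1 and 57.2 in replicate 3 of RANKL 3 d, with replicate 2 between control and these (log2 fold change 3.97, adjusted p = 2.1e-05, limma). *Slc4a2*, the chloride and bicarbonate exchanger that disposes of the base, rose by 1.66, and *Snx10*, a sorting nexin required for osteoclast resorption, by 1.39. *Plekhm1* fell by 0.63 with overlapping ranges, and *Clcn7* and *Ostm1*, the paired chloride and proton exchanger, lay at 0.02 and 0.14. So 3 of 7 partners rose and 1 fell in RANKL 3 d, beside 20.2% and 9.04% of all genes. In LPS 4 h *Car2* and *Snx10* rose, by 2.17 and 1.32, and *Plekhm1* (-2.91) and *Ostm1* (-0.98) fell, beside 8.75% and 41.0% of all genes. After centring *Car2* (2.74), *Snx10* (1.89) and *Clcn7* (0.96) were called higher and *Plekhm1* (-2.35) lower, and *Ostm1* (-0.41) was not called. None of the 7 was called in LPS 3 d, but *Clcn7* was higher without replicate 3 (0.62), and *Plekhm1* was lower after centring (-0.63), where 18.1% of all genes were.

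Among 8 transcription factors linked to lysosomal or osteoclast genes, *Nfatc1* (2.42), *Ppargc1b* (2.49) and *Fos* (1.45) rose in RANKL 3 d on the log2 scale and none fell, beside 20.2% and 9.04% of all genes. *Tfec* was called lower there only after centring (-0.74). In LPS 4 h *Tfeb* fell from 9.72 to 11.9 FPKM in control to 1.06 to 1.69 (log2 change -2.92), *Fos* and *Nfatc1* fell, and *Mitf* (0.97), *Tfec* (1.28) and *Ppargc1b* (1.23) rose, so that 3 of 8 moved each way, beside 8.75% of all genes higher and 41.0% lower. These 6 calls held after centring, and *Spi1* (1.13) was then called higher too. In LPS 3 d *Mitf* (-1.11) and *Tfeb* (-0.76) fell and *Fos* rose (79.4, 60.7 and 93.6 FPKM against 27.3 to 36.0), beside 16.1% of all genes lower and 14.9% higher. *Tfec* was also lower there after centring (-0.66). On the scale of the deposited FPKM *Spi1* and *Tfe3* stayed inside the fold limits in RANKL 3 d, LPS 4 h and LPS 3 d, and in RANKL 4 h none of the 8 was called.

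Genes whose pattern over the 15 samples was most like that of *Tcirg1* were *Ece2* (Pearson r = 0.84), *Slc25a25* (0.84), *Aff2* (0.82), *Gm6034* (0.80) and *Chit1* (0.80). Those most like *Atp6v0d2* were *Klf11* (0.91), *LOC108167320* (0.91), *Bre* (0.89), *Atxn10* (0.89) and *Lrrc39* (0.89). None of these 10 is a pump subunit, and the samples share groups, so the values describe likeness over 15 samples only. *Tcirg1* and *Atp6v0d2* were correlated at 0.33 with each other over the same samples. Of the like genes, *Aff2*, *Gm6034*, *Chit1* and *Lrrc39* lay near the pseudocount of 0.1. Their means were at most 0.703 FPKM in control, RANKL 3 d, LPS 4 h and LPS 3 d.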

How the data were processed

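The 15 samples were grouped by the titles and treatments in the labels. The authors deposited 1 table of FPKM per gene and sample, estimated with StringTie and Ballgown according to the methods and, per the labels' processing notes, on GRCm38.p4 and mm10. The aligner is not given in the sources used here. The last entry was incomplete and was left out, and later genes were not analysed here. Fragments behind the FPKM were recovered from the steps between values, whole within 0.01 in all 14485 genes detected in 3 or more samples, with 18306184 to 20330207 fragments per sample. Counting error from them is a lower bound on the error. No pair of replicates agreed within sampling noise (median chi-square over sampling 7.49 to 52.7).

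A pseudocount of 0.1 was added to the FPKM, and log2 values of the 11743 genes reaching an average of 0.1 FPKM were fitted in limma (version 3.58.1, R 4.3.3, eBayes trend on), all 5 groups together. All fold changes use this log2 scale. Thresholds (fold above 1.5 or below 0.66, unadjusted p under 0.05) are those of the methods, and adjusted p is Benjamini-Hochberg over all tested genes. The fit was tested on simulated data. Alternatives were other pseudocounts and filters, equal sums, centring on the median gene, fits of only the compared groups, the replicate block, no trend, voom on the recovered fragments, calls by adjusted p and leaving out each replicate. Isoform ratios were compared by exact permutation tests (scipy 1.17.1). The members were given by name, and the members, gene lists and tests were chosen with earlier results of these data known. Named genes are the members, the pump, assembly, acid secretion and transcription factor lists, and the 5 genes most like *Tcirg1* and *Atp6v0d2*.

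Replicate numbers were taken as pairing samples where the deviations from the group means of same-numbered samples correlated above 0.1 in all 3 pairs (9486 genes). This held for RANKL 3 d and control (0.32, 0.14 and 0.18), RANKL 4 h and control (0.84, 0.71 and 0.74), LPS 4 h and control (0.62, 0.62 and 0.44), RANKL 4 h and LPS 4 h (0.69, 0.67 and 0.55) and RANKL 3 d and RANKL 4 h (0.24, 0.16 and 0.25). In RANKL 3 d, replicate 3 correlated more with another number of control (0.26) than with its own, and replicate 2 with another number of RANKL 4 h (0.17), so pairing there was weak. It did not hold for LPS 3 d and control (-0.03, 0.18 and 0.07) or RANKL 3 d and LPS 3 d (-0.13, -0.02 and -0.23).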

Additional observations from a re-analysis of the deposited data

Results flagged for a closer look

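The change from 4 h to 3 d differed between RANKL and LPS, by the test of the difference itself (limma), for *Atp6v0d1* (-0.9134 on the log2 scale, RANKL minus LPS), *Atp6v0a1* (-1.2625) and *Atp6v1c1* (-1.0732). After centring of the samples on the median gene, *Atp6v0a1* was still called, and *Atp6v0d1* (-0.48) and *Atp6v1c1* (-0.64) were not. In LPS 4 h the median of all tested genes lay at -0.52 against control, and its part in these differences was not tested beyond that centring.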

How the results depend on the processing

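Over 49 results for single genes and 900 alternative values, 834 kept direction and side of the threshold, 41 lost the call, 8 gained it and 17 reversed. The 49 took in every member for RANKL 3 d, LPS 4 h and LPS 3 d against control and for RANKL 3 d against LPS 3 d. For RANKL 4 h against control or LPS 4 h, RANKL 3 d against RANKL 4 h and the change over time, only called members counted. Calls gained by other members in these comparisons, such as those after centring given below, are therefore outside the 8. None of the called results reversed. Centring samples on their median gene turned the uncalled RANKL 3 d values of *Atp6v1b2* (-0.12), *Atp6v1c1* (-0.15), *Atp6v1e1* (-0.12) and *Atp6v1g1* (-0.10), the LPS 4 h values of *Atp6v1a* (0.14) and *Atp6v1g1* (0.093), and the RANKL 3 d minus LPS 3 d value of *Tcirg1* (-0.12). Rescaling to equal sums turned that of *Atp6v0b* (0.029). Without RANKL 3 d replicate 3, *Atp6v1b2* (-0.14), *Atp6v1c1* (-0.14), *Atp6v1e1* (-0.066) and *Atp6v1g1* (-0.026) turned against control (highest 0.30, 0.25, 0.24 and 0.26 without RANKL 3 d replicate 2) and *Tcirg1* (-0.07) against LPS 3 d, as did *Tcirg1* without LPS 3 d replicate 3 (-0.23, range to 0.19). *Atp6v0b* turned without LPS 3 d replicate 1 (0.01) or RANKL 3 d replicate 2 (0.067), and *Atp6v1c1* without the latter (0.0067, range from -0.47). Leave-one-out ranges of the ratio of *Atp6v0d2* to *Atp6v0d1* in RANKL 4 h were -0.1392 to 0.2398.

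Members called moved as follows under centring, the replicate block, leaving out 1 replicate and voom. For centring, the share of all tested genes is in brackets. In LPS 4 h it gave 3 higher (17.4%) and 1 lower (14.3%), as deposited 0 and 5. In RANKL 3 d against LPS 3 d it gave 1 higher (20.7%), as deposited 4. In RANKL 4 h against LPS 4 h it gave 1 higher (14.7%) and 3 lower (17.6%), as deposited 5 and 0. In RANKL 3 d against RANKL 4 h it gave 2 lower (13.6%), as deposited 1. In the change over time it gave 3 higher (26.6%) and 1 lower (21.1%), as deposited 0 and 3. The replicate block in the fit of only the compared groups was added after the data had been seen. It gave 1 higher in RANKL 3 d against control and 1 against RANKL 4 h (0 each), beside 21.2% of all genes in each. It ended the call of *Atp6v1b2* in RANKL 3 d against LPS 3 d, where the numbers do not pair the samples, and changed no other call among the 49 results. The replicate block in the fit of all groups changed none of them. Leaving out 1 replicate gave 0 to 2 higher in RANKL 3 d against control and against RANKL 4 h, 0 to 1 lower in the latter, 2 to 4 higher in RANKL 3 d against LPS 3 d and 0 to 1 higher in the change over time (1 without LPS 3 d replicate 1 or 2, or RANKL 3 d replicate 2). With all samples, the shares of all genes called in the same order were 20.2% and 20.1% higher, 8.24% lower, 25.1% higher and 17.1% higher. Shares with 1 replicate left out are not given here, so these member counts have no background of their own. Leaving out 1 replicate also ended, in some fits, the calls of *Atp6v0d2* in LPS 4 h and *Atp6v1b2* in LPS 3 d, as given above. Voom ended the call of *Atp6v1b2* in LPS 3 d (-0.5994) and called *Atp6v1g1* higher in RANKL 4 h against LPS 4 h (0.5859). The shares of all genes under voom are not given here. The cause of these changes was not tested. With 3 replicates, exact tests of the ratios cannot pass p = 0.1.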
